A study of Mus musculus with 24 samples.

Results

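Neural stem and progenitor cells (NSPCs) without KAT6A were compared with NSPCs that kept 1 functional *Kat6a* allele, to ask what loss of the second allele adds to loss of the first. The comparison held the 8 proliferating RNA libraries labelled homozygous (4) or heterozygous (4) for the *Kat6a* null allele, of 24 libraries in the series. Each library was made from cells of 1 embryo. The 4 proliferating wild-type libraries (*Kat6a*+/+) entered the same model, because they set the size of the first step.

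All embryos came from intercrosses of *Kat6a*+/– mice on a C57BL/6 background and were taken at E12.5. The null allele is constitutive. It lacks several exons, which places a premature stop codon in the part that encodes the catalytic domain. Cells of the dorsal telencephalon, from which the cortex forms, were grown under neurosphere conditions with FGF2, EGF and heparin and frozen after a few passages. They were grown for 3 days under proliferation conditions before RNA was taken. The study reported that *Kat6a*+/– cells made smaller colonies that tended to attach. It reported few floating colonies of *Kat6a*–/– cells, which attached to the plastic and proliferated more slowly. The *Kat6a*–/– and *Kat6a*+/– groups were handled alike and differed in the labels by genotype, embryo and litter. Cultured NSPCs model the dividing progenitors of the cortex. They lack the neighbouring cells of the embryo, and a shift in the mix of cell states in a culture cannot be told apart from a shift in RNA per cell.

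KAT6A (also MOZ or MYST3) is the catalytic subunit of a complex with BRPF1, BRD1 or BRPF3 together with ING4 or ING5 and MEAF6. It acetylates histone H3 and is known as a regulator of developmental genes, among them HOX genes, and of the *Cdkn2a* locus that restrains the renewal of stem cells. In neural progenitors SOX and homeodomain transcription factors hold regional identity, while Notch, FGF and BMP signals set the balance between renewal, neurons and glia.

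Total counts ranged from 7826660 to 12542736 in the 8 libraries, and 15662 to 16417 genes had at least 1 count. The 12 libraries came from 5 litters. Litter 4633 gave 2 libraries of each mutant genotype and litter 5063 gave 1 of each. Reads of Y-linked genes exceeded 100 CPM (counts scaled to the library total) in 1 of 4 libraries of each mutant group and in 3 of 4 *Kat6a*+/+ libraries. *Kat6a* itself (chr8:23349545-23433275, mm39) was at 346, 365, 368 and 341 CPM in *Kat6a*+/– replicates 1 to 4 and at 397, 362, 345 and 344 CPM in *Kat6a*–/– replicates 1 to 4. The 2 ranges overlapped, with a log2 fold change of 0.03 (SE 0.05, FDR 0.707). Gene-level counts also hold reads of the exons that the null allele keeps, so this value did not check the genotypes.

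On the first principal component of log2 CPM, which held 52.4% of the variance, the *Kat6a*–/– libraries lay from 21.8 to 56.1. *Kat6a*+/– replicates 1 to 3 lay from −22.7 to −8.16, and the *Kat6a*+/+ libraries from −33.8 to −14.8. *Kat6a*+/– replicate 4 stood apart at 21.6, just below the lowest *Kat6a*–/– library. It and *Kat6a*–/– replicate 4, the 2 libraries of litter 5063, also had the highest values on the second component (13% of the variance), at 19.8 and 27.9, where the other *Kat6a*–/– libraries lay from −21.3 to −15.7. The total count of calls is therefore also given without litter 5063. Losses of call without that litter are given for genes named with values, and list counts without it are given for some lists but not all.

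**Figure D1:**
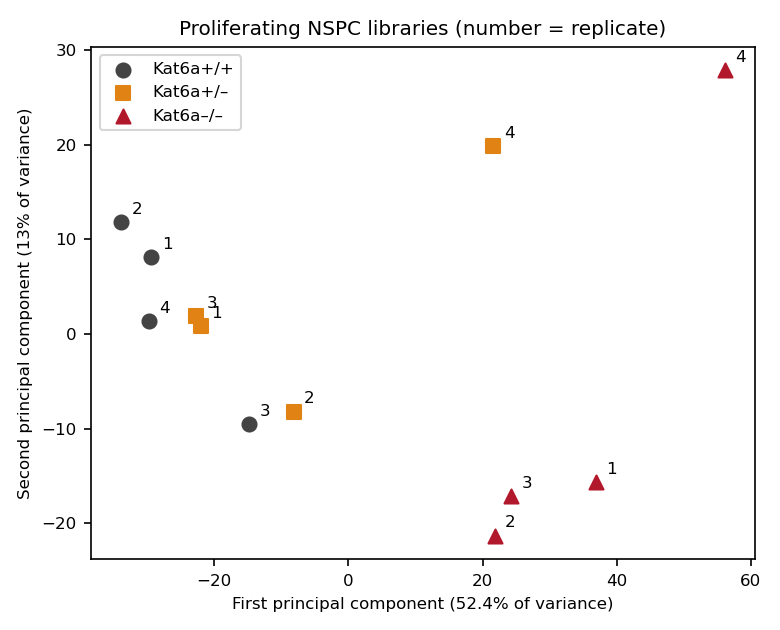
First against second principal component of log2 CPM over the tested genes in the 12 proliferating libraries, 1 point a library, with genotype shown by colour and shape and the replicate number beside it. *Kat6a*+/– replicate 4 (21.6, 19.8) lies away from the other *Kat6a*+/– libraries, and *Kat6a*–/– replicate 4 (56.1, 27.9) away from the other *Kat6a*–/– libraries.

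Loss of the second allele was accompanied by expression differences in 1813 of 12276 tested genes (14.8%) at a false discovery rate (FDR, the Benjamini-Hochberg adjusted p of limma-voom) under 0.05. Of these, 1040 genes (8.47% of those tested) were higher and 773 (6.3%) were lower in *Kat6a*–/– NSPCs. The median size of a called change was 0.52 on the log2 scale. A difference of more than 1 on that scale, which is a doubling, was reached by 242 higher and 124 lower genes. All 4 *Kat6a*–/– libraries lay beyond all 4 *Kat6a*+/– libraries for 1512 tested genes (12.3%), and 1076 of these were called. Within litter 4633 all 1813 called genes had the fitted sign, and within litter 5063 1795 did, although both litters were part of the fit that made the calls.

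The number of calls depended on which libraries entered. It was 1824 without litter 5063, of which 1346 were among the 1813. Leaving out *Kat6a*–/– replicate 4 alone gave 696 calls and leaving out *Kat6a*–/– replicate 1 gave 1005. Leaving out *Kat6a*+/– replicate 1 gave 803 calls, and leaving out *Kat6a*+/– replicate 2 gave 1201. Within litter 4633 alone, with 2 libraries against 2, the count was 316.

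**Figure D2:**
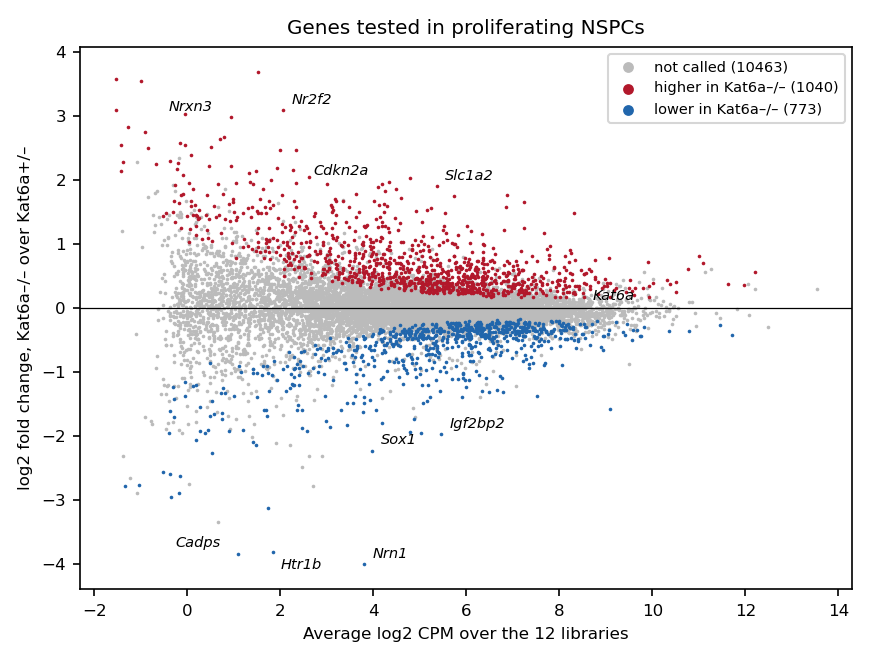
Fitted log2 fold change of *Kat6a*–/– over *Kat6a*+/– NSPCs against the average log2 CPM over the 12 libraries for the 12276 tested genes, 1 point a gene. Red points are the 1040 genes called higher and blue points the 773 called lower at FDR under 0.05, grey points were not called, and named genes are labelled.

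Among called genes with an average log2 CPM above 0 and groups that did not overlap, the 12 largest rises were led by *Nr2f2*, which encodes the transcription factor COUP-TFII. *Nr2f2* was at 0.886, 4.31, 8.01 and 0.399 CPM in *Kat6a*+/– replicates 1 to 4 and at 21.3, 20.4, 18.9 and 12 CPM in *Kat6a*–/– replicates 1 to 4. The *Kat6a*–/– libraries were close together, whereas the *Kat6a*+/– libraries spread widely. The log2 fold change was 3.10 (SE 0.52, FDR 0.00305), and without litter 5063 it was 2.69 (FDR 0.0095). *Nrxn3* encodes a presynaptic adhesion protein. *Nrxn3* was at 0.564, 1.60, 1.96 and 2.80 CPM in *Kat6a*+/– replicates 1 to 4 and at 21.1, 10.7, 15.4 and 6.68 CPM in *Kat6a*–/– replicates 1 to 4. Its log2 fold change was 2.99 (SE 0.50, FDR 0.00265), and 3.64 without litter 5063. *Frem1* encodes an extracellular matrix protein of basement membranes. *Frem1* was at 2.58, 2.70, 3.60 and 12 CPM in the *Kat6a*+/– replicates and at 30.8, 15.5, 16.7 and 32.7 CPM in the *Kat6a*–/– replicates, so that *Kat6a*+/– replicate 4 came near the lowest *Kat6a*–/– value. The log2 fold change of *Frem1* was 2.48 (SE 0.40, FDR 0.00232).

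The other 9 of the 12 largest rises had log2 fold changes from 2.01 to 2.67. *Ppp1r13b*, which encodes the p53-binding protein ASPP1, was at 1.45, 1.40, 2.45 and 1.80 CPM in *Kat6a*+/– and at 8.19, 7.47, 6.86 and 9.56 CPM in *Kat6a*–/– replicates 1 to 4 (log2 fold change 2.15, SE 0.22, FDR 0.000125). *Chchd7*, a gene for a small mitochondrial protein, had 4 *Kat6a*–/– libraries within 8.86 to 9.70 CPM and *Kat6a*+/– libraries from 1.88 to 3.06 CPM, with a log2 fold change of 2.01. *Megf11*, which encodes a cell-surface receptor, was at 10.5, 24.5, 12.6 and 34.1 CPM in *Kat6a*+/– and at 80.3, 72.4, 66.2 and 75.4 CPM in *Kat6a*–/– replicates 1 to 4. Both groups of *Megf11* were clearly separate, with a log2 fold change of 2.04 (SE 0.26, FDR 0.000825). The remainder were *Lrrc75b* (2.67), *Gm973* (2.39), *Tceal1* (2.23), the complement gene *C2* (2.22), the cation channel gene *Trpm3* (2.11) and the calcium-binding protein gene *S100b* (2.05), each given as a log2 fold change. *Kat6a*+/– means were low for *Lrrc75b* (1.36 CPM), *Gm973* (0.554 CPM), *Tceal1* (1.27 CPM), *C2* (1.44 CPM) and *Trpm3* (1.92 CPM). All 12 kept their calls without litter 5063 and when any 1 of the 12 libraries was left out.

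The largest fall by the same rule was that of *Nrn1*, which encodes neuritin, a membrane-anchored protein that promotes neurite growth. *Nrn1* was at 40.7, 19.1, 60.6 and 19.0 CPM in *Kat6a*+/– replicates 1 to 4 and at 1.15, 2.49, 1.44 and 2.06 CPM in *Kat6a*–/– replicates 1 to 4. All *Kat6a*–/– libraries were far below all *Kat6a*+/– libraries. The log2 fold change was −4.01, but with a wide error (SE 0.99, FDR 0.0214), and the call of *Nrn1* was lost without litter 5063 (FDR 0.059) and without *Kat6a*–/– replicate 1, 3 or 4, with FDR up to 0.0948. *Cadps* encodes a factor that primes dense-core vesicles for release. *Cadps* was at 3.95, 4.71, 3.43 and 6.99 CPM in *Kat6a*+/– and at 0.346, 0.00, 0.886 and 0.411 CPM in *Kat6a*–/– replicates 1 to 4 (log2 fold change −3.84, SE 0.54, FDR 0.00087). *Htr1b*, the gene of the serotonin receptor 1B, was at 7.41, 7.71, 6.71 and 5.09 CPM in *Kat6a*+/– and at 0.923, 0.918, 0.554 and 0.103 CPM in *Kat6a*–/– replicates 1 to 4. Its log2 fold change was −3.82 (SE 0.46, FDR 0.000358), and −3.16 without litter 5063.

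*Sox1*, a SOXB1 transcription factor gene of neural progenitors, was at 24.9, 22.2, 22.4 and 32.6 CPM in *Kat6a*+/– and at 6.46, 4.19, 4.54 and 4.73 CPM in *Kat6a*–/– replicates 1 to 4. Every *Kat6a*–/– library was far below the lowest *Kat6a*+/– value, and the log2 fold change of *Sox1* was −2.23 (SE 0.26, FDR 0.000312). *Igf2bp2*, which encodes an RNA-binding protein, was at 78.6, 43.0, 64.4 and 60.0 CPM in *Kat6a*+/– and at 7.73, 14.2, 16.5 and 23.4 CPM in *Kat6a*–/– replicates 1 to 4 (log2 fold change −1.97, SE 0.24, FDR 0.000523). *Slc38a4*, an imprinted amino acid transporter gene, fell by 3.12 on the log2 scale (SE 0.82, FDR 0.0249), with *Kat6a*+/– replicate 4 at 1.80 CPM near the highest *Kat6a*–/– value of 1.33 CPM. Its call was lost without *Kat6a*+/– replicate 1 or *Kat6a*–/– replicate 1, 2 or 4, with FDR up to 0.102. The others of the 12 largest falls were *Fgf13* (−2.26), the Wnt antagonist gene *Sfrp1* (−2.10), *Moxd1* (−1.96), *Vgll2* (−1.95), *Cpne7* (−1.94) and the protease inhibitor gene *Serpina3n* (−1.93), each as a log2 fold change. *Fgf13*, *Sfrp1*, *Vgll2* and *Serpina3n* were low, with means of 2.04, 3.33, 1.48 and 2.31 CPM in *Kat6a*+/– libraries. Their *Kat6a*–/– means were 0.398, 0.652, 0.481 and 0.571 CPM. *Sfrp1*, *Moxd1* and *Cpne7* were not called without *Kat6a*–/– replicate 4 (FDR 0.0575, 0.0501 and 0.0523), and *Cpne7* also not without litter 5063 (FDR 0.0569). *Vgll2* lost its call without any 1 of *Kat6a*+/– replicates 1 to 3 and *Kat6a*–/– replicates 1, 3 and 4, and *Serpina3n* without *Kat6a*+/– replicate 1 or *Kat6a*–/– replicate 1, 2 or 4, with FDR up to 0.102 and 0.124. Without litter 5063 *Vgll2* was not called either (FDR 0.0564).

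**Figure D3:**
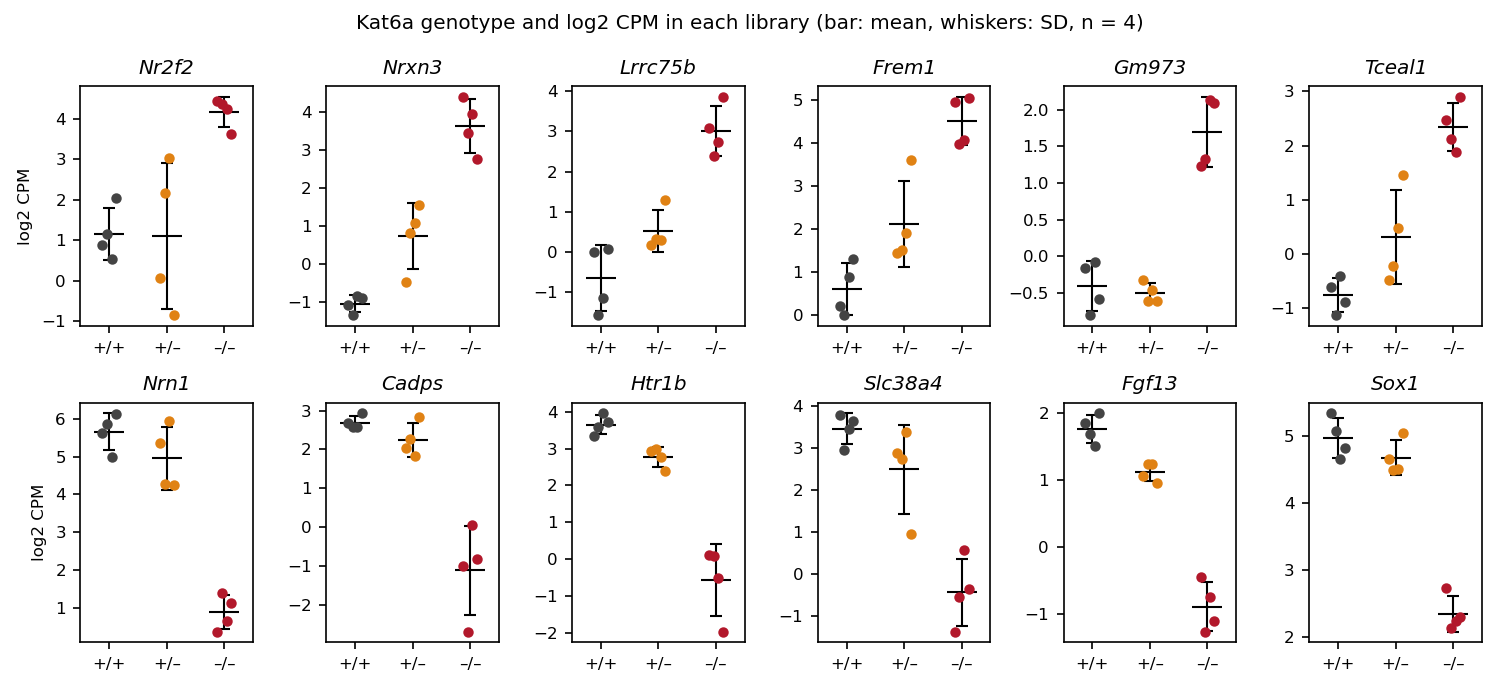
log2 CPM of the 6 largest rises (upper row) and 6 largest falls (lower row) with an average log2 CPM above 0 and groups that did not overlap, in each of the 4 *Kat6a*+/+, 4 *Kat6a*+/– and 4 *Kat6a*–/– libraries, 1 point a library, with the mean as a bar and the SD as whiskers. Axis ranges differ between panels, and in each panel all 4 *Kat6a*–/– points lie beyond all 4 *Kat6a*+/– points.

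Windows at a listed start are shown for the 3 largest rises and 3 largest falls with a RefSeq promoter entry (GRCm38.p6). Such windows were chosen because the complexes that hold KAT6A act at gene starts, many of which lie in CpG islands. Each runs from 250 bases before to 50 bases after the first listed start, 5′ to 3′ on the gene's strand, with CpG dinucleotides in capitals. Each had a single exact match in GRCm39, the genome of the counts, at chr7:70016445-70016744 (minus strand) for *Nr2f2*, chr12:88761024-88761323 (plus) for *Nrxn3*, chr4:82939290-82939589 (minus) for *Frem1*, chr14:9646434-9646733 (plus) for *Cadps*, chr9:81515836-81516135 (minus) for *Htr1b* and chr15:96953788-96954087 (minus) for *Slc38a4*.
Nr2f2: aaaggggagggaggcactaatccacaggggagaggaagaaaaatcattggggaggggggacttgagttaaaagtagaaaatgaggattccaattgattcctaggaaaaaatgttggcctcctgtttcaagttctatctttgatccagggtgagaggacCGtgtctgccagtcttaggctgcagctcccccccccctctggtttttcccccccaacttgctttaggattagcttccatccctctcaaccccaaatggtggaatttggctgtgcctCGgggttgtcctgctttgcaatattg
Nrxn3: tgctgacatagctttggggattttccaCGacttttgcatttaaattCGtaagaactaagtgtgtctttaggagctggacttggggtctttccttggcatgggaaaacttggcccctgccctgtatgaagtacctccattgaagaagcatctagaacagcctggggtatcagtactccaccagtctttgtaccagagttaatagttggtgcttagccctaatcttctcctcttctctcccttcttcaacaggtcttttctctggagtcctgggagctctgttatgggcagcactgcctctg
Frem1: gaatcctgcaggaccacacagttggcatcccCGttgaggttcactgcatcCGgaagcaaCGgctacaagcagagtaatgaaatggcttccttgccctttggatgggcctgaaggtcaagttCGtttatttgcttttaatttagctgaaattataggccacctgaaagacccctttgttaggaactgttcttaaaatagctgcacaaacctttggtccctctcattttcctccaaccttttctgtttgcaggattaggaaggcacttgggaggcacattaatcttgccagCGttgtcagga
Cadps: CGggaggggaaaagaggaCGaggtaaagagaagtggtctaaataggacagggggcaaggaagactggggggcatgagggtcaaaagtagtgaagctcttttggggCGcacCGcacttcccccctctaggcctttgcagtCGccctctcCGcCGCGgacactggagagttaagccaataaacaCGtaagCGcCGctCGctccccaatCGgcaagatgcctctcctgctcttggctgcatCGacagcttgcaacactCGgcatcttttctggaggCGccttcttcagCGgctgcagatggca
Htr1b: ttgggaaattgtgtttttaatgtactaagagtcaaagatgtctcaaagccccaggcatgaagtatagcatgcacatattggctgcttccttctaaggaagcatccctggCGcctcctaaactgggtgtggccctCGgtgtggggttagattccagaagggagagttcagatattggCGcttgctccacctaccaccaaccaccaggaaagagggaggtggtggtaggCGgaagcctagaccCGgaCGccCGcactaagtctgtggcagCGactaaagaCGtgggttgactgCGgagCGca
Slc38a4: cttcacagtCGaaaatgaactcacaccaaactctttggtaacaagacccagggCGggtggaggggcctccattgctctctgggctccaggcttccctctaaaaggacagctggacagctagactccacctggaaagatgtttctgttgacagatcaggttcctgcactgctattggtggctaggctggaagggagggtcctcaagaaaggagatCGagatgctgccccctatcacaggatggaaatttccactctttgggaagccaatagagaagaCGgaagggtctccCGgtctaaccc

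The *Nr2f2*, *Nrxn3* and *Frem1* windows held 2, 2 and 5 CpG dinucleotides, and those of *Cadps*, *Htr1b* and *Slc38a4* held 17, 11 and 5. *Nrxn3* and *Slc38a4* have 3 listed starts and *Frem1* has 2, and gene-level counts do not say which start was used. The windows of *Nrxn3*, *Frem1*, *Cadps* and *Slc38a4* lie inside the gene, not at its outermost 5′ end. That end is at chr12:88689646 for *Nrxn3*, chr4:82970576 for *Frem1*, chr14:9646283 for *Cadps* and chr15:96958593 for *Slc38a4*. Their CpG counts therefore need not describe the main promoter. Over all 9872 tested genes with an entry, the median ratio of observed to expected CpG was 0.78. It was 0.71 for 795 called higher genes and 0.80 for 612 called lower genes, given as a description with no test. The letters TATAAA, searched on both strands, occurred in 5.91% of the windows of higher genes, 6.7% of those of lower genes and 6.23% of all, and in none of the 6 shown.

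Gene lists drawn up from textbook knowledge are described by their counts of called members, beside 8.47% higher and 6.3% lower over all tested genes, and by their median log2 fold change, beside −0.01 over all tested genes.

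Of 12 tested SOX genes, 4 were lower and none was higher, with a median log2 fold change of −0.18. Without litter 5063, 3 were lower, and without *Kat6a*+/– replicate 2, 2 were, while the median ranged from −0.23 to −0.05 over single libraries left out. *Sox11*, a SOXC gene that promotes neuronal differentiation, was at 281, 296, 283 and 279 CPM in *Kat6a*+/– and at 206, 222, 236 and 169 CPM in *Kat6a*–/– replicates 1 to 4 (log2 fold change −0.46, SE 0.08, FDR 0.00343), a small and separate shift. Of 15 tested genes of dorsal telencephalon patterning, 5 were lower (among them *Emx2*, *Otx1*, *Dmrta2* and *Nr2e1*) and 2 were higher (*Nr2f2* and *Zbtb20*), and without *Kat6a*–/– replicate 4 the counts were 3 lower and 1 higher. Of 13 tested TALE homeodomain genes, 1 was called, *Meis2*, which was lower (log2 fold change −0.59, SE 0.10, FDR 0.00285). The ventral and interneuron list had 7 tested members, of which 2 were higher, *Olig1* (0.37, SE 0.07, FDR 0.00569) and *Olig2* (0.18, SE 0.05, FDR 0.0377), both as log2 fold changes. Each is also a marker of the oligodendrocyte lineage, and the call of *Olig2* was lost without any 1 of 8 of the 12 libraries.

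None of the 39 HOX genes passed the filter on low counts. They summed to 0, 0, 1 and 1 counts in *Kat6a*+/– replicates 1 to 4 and to 8, 11, 17 and 9 counts in *Kat6a*–/– replicates 1 to 4. These few counts, summed over the list, did not overlap between the 2 groups and were not tested.

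Of 16 tested astrocyte markers, 7 were higher and none was lower, with a median log2 fold change of 0.79. *Slc1a2*, the gene of the glutamate transporter GLT-1, was at 22.4, 18.7, 31.5 and 56.1 CPM in *Kat6a*+/– and at 136, 61.1, 109 and 173 CPM in *Kat6a*–/– replicates 1 to 4 (log2 fold change 1.91, SE 0.31, FDR 0.00316). *S100b* was at 2.5, 4.31, 3.35 and 7.09 CPM in *Kat6a*+/– and at 18, 13.8, 15.6 and 18.5 CPM in *Kat6a*–/– replicates 1 to 4. In both genes *Kat6a*+/– replicate 4 was the highest *Kat6a*+/– library, below every *Kat6a*–/– library. The summed CPM of the 18 astrocyte markers ranged from 1801 to 2320.5 in *Kat6a*+/– and from 2523 to 3549 in *Kat6a*–/– libraries. The astrocyte count stayed at 7 higher without litter 5063 and was 4 without *Kat6a*–/– replicate 4.

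Of 18 radial glia markers, all tested, 5 were higher and 2 lower, with a median of 0.01. The higher count was 7 without litter 5063 and 3 without *Kat6a*+/– replicate 2, and the lower count was 1 without *Kat6a*+/– replicate 1. *Ptprz1*, a receptor phosphatase gene of radial glia, was at 1401, 1728, 1699 and 2367 CPM in *Kat6a*+/– and at 3784, 3127, 3167 and 2767 CPM in *Kat6a*–/– replicates 1 to 4 (log2 fold change 0.82, SE 0.14, FDR 0.00331). *Vim*, the intermediate filament gene, was lower by contrast (log2 fold change −0.42, SE 0.08, FDR 0.00434). Among 11 tested oligodendrocyte lineage markers, *Olig1* and *Olig2* were higher and *Pdgfra*, the receptor gene of oligodendrocyte precursors, was lower (log2 fold change −0.83, SE 0.23, FDR 0.0297). The call of *Pdgfra* was lost without litter 5063 (FDR 0.223) and without *Kat6a*+/– replicate 1, 2 or 4 or *Kat6a*–/– replicate 1, 2 or 4. Of 14 tested neuron markers, 3 were lower and none was higher, with a median of −0.36: *Nrn1*, *Gap43* (−0.43, SE 0.12, FDR 0.0281) and *Tubb3*. None of them was called without litter 5063 or without *Kat6a*–/– replicate 4, and *Gap43* also not without *Kat6a*+/– replicate 1 or 3 or *Kat6a*–/– replicate 1 or 2. The 16 neuron markers together summed to 1605 to 1878 CPM in *Kat6a*+/– and 1644 to 1816 CPM in *Kat6a*–/– libraries, so the 2 ranges overlapped.

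Summed levels of erythroid, endothelial, and microglia and macrophage markers were low. Those of mesenchymal and meningeal markers were higher, and *Prrx1* alone had a mean of 137 CPM in *Kat6a*+/– and 111 CPM in *Kat6a*–/– libraries. Erythroid markers summed to at most 0.918 CPM in a *Kat6a*+/– or *Kat6a*–/– library and to 1.16 CPM in *Kat6a*+/+ replicate 4. Of 12 microglia and macrophage markers, 2 were tested and *P2ry12*, a purinergic receptor gene, was higher, at 2.09, 3.41, 1.55 and 1.20 CPM in *Kat6a*+/– replicates 1 to 4, and at 8.19, 8.39, 6.20 and 6.58 CPM in the *Kat6a*–/– replicates (log2 fold change 1.94, SE 0.24, FDR 0.000372). The microglial genes *Cx3cr1*, *C1qa*, *C1qb*, *C1qc* and *Tyrobp* had no count in any of the 12 libraries. Of the other markers, 3 of 10 endothelial and 3 of 15 mesenchymal and meningeal markers were tested and none was called, with summed CPM of 4.89 to 12.4 and 147 to 199 in *Kat6a*+/– and of 4.01 to 8.13 and 117 to 175 in *Kat6a*–/– libraries. *Foxj1* was the 1 tested choroid plexus and ependyma marker (log2 fold change 0.59, FDR 0.0971). *Emcn* and *Prrx1*, with the smallest p of the endothelial and mesenchymal lists, had log2 fold changes of −1.46 (FDR 0.171) and −0.28 (FDR 0.109). Without litter 5063, 1 endothelial marker and 1 mesenchymal and meningeal marker were called lower.

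Protocadherins are cell adhesion proteins of neurons and glia. Of 43 tested clustered protocadherins, 17 were higher and none was lower, with a median of 0.58 and fitted values above 0 for 41 of 43. *Pcdhb9* was at 2.25, 3.21, 3.43 and 8.19 CPM in *Kat6a*+/– and at 14.2, 8.91, 9.63 and 16.5 CPM in *Kat6a*–/– replicates 1 to 4 (log2 fold change 1.67, SE 0.28, FDR 0.00266). These genes are close paralogs, so that reads may be shared among them. The count was 15 without litter 5063 and 5 without *Kat6a*–/– replicate 4. Of 8 tested delta protocadherins, 4 were higher, and all 8 had values above 0, from 0.28 to 1.18. *Pcdh11x* was at 30.6, 38.3, 36.8 and 43.0 CPM in *Kat6a*+/– and at 95.0, 85.1, 79.9 and 82.3 CPM in *Kat6a*–/– replicates 1 to 4 (log2 fold change 1.18, SE 0.12, FDR 0.00012). Its call held in all 28 settings, and so did that of *Pcdh7* (0.96, SE 0.17, FDR 0.00331). Of 10 tested neurexin, neuroligin and related genes, 3 were higher, among them *Nrxn3* and *Nlgn1*.

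Of 59 tested axon guidance genes, 8 were higher and 5 lower, beside 8.47% and 6.3% over all tested genes. The lower count was thus near the share over all genes. *Plxnc1*, a semaphorin receptor gene, was at 26.0, 25.1, 30.3 and 29.0 CPM in *Kat6a*+/– and at 75.7, 50.9, 54.9 and 60.6 CPM in *Kat6a*–/– replicates 1 to 4 (log2 fold change 1.13, SE 0.11, FDR 0.000124). The ephrin receptor gene *Epha5* had a log2 fold change of 0.81 (SE 0.09, FDR 0.000289). Higher members were *Sema6a*, *Sema6d*, *Nrp1*, *Plxna2*, *Plxnc1*, *Robo1*, *Robo2* and *Epha5*, and lower ones were *Slit2*, *Ntng1*, *Unc5b*, *Efna2* and *Efnb1*. Without litter 5063 the higher count was 13, and without *Kat6a*–/– replicate 4 the lower count was 2.

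Matrix and integrin genes were mixed. Of 23 tested matrix genes, 4 were higher and 1 was lower, led by *Bcan*, which encodes the brain proteoglycan brevican (log2 fold change 0.72, SE 0.09, FDR 0.000372), and the laminin gene *Lamb1* (0.38, SE 0.09, FDR 0.0117). Integrin genes split into 3 higher, among them *Itgav* (0.55, FDR 0.00165) and *Itgb5* (0.89, FDR 0.00181), and 3 lower (*Itga5*, *Itga7* and *Itga8*), of 18 tested, and 1 was lower without *Kat6a*+/– replicate 1. Of 25 tested collagens, 6 were higher and 1, *Col18a1*, was lower. *Col9a3* was at 72.2, 76.1, 71.3 and 62.9 CPM in *Kat6a*+/– and at 178, 138, 107 and 133 CPM in *Kat6a*–/– replicates 1 to 4 (log2 fold change 0.98, SE 0.13, FDR 0.000574), and the basement membrane gene *Col4a1* had a log2 fold change of 0.70 (FDR 0.00122). Of 10 tested classical cadherins, 2 were higher, *Cdh10* (0.93, FDR 0.00513) and *Cdh6* (0.48, FDR 0.0451), and the latter lost its call in 18 of 28 settings.

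Of 23 tested glutamate and GABA receptor genes, 8 were higher and none was lower, with a median of 0.38, and all 8 encode glutamate receptor subunits (*Gria1*, *Gria2*, *Gria3*, *Gria4*, *Grik2*, *Grin2c*, *Grm3* and *Grm5*). *Grm5*, a metabotropic receptor gene, was at 242, 235, 315 and 261 CPM in *Kat6a*+/– and at 467, 387, 372 and 376 CPM in *Kat6a*–/– replicates 1 to 4 (log2 fold change 0.60, SE 0.10, FDR 0.00305). *Grin2c*, an NMDA receptor subunit gene, was low in both groups, at 0.300 to 1.13 CPM in *Kat6a*+/– and 1.99 to 4.15 CPM in *Kat6a*–/– libraries (log2 fold change 2.55, SE 0.37, FDR 0.00118). The summed CPM of the list was 941 to 1066 in *Kat6a*+/– replicates 1 to 3, 1499 in *Kat6a*+/– replicate 4 and 1526 to 2075 in the *Kat6a*–/– libraries. The count of higher genes was 8 without litter 5063 and 4 without *Kat6a*–/– replicate 4. Of 38 tested voltage-gated and related channel genes, 7 were higher and 4 lower. The counts were 3 and 1 without *Kat6a*–/– replicate 4, and 8 and 1 without litter 5063. The potassium channel genes *Kcnc4* (1.67, SE 0.29, FDR 0.00292) and *Kcnj10* (1.04, SE 0.22, FDR 0.00834) had the smallest p. *Kcnj10* is also a gene of astrocytes.

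Regulators of the cell cycle showed a rise of *Cdkn2a*, which encodes the CDK inhibitor p16INK4a and the p53 activator p19ARF from 1 locus. *Cdkn2a* was at 22.6, 10.6, 14.8 and 8.09 CPM in *Kat6a*+/– and at 46.3, 58.2, 55.1 and 51.5 CPM in *Kat6a*–/– replicates 1 to 4. All *Kat6a*–/– libraries were above all *Kat6a*+/– libraries, at a log2 fold change of 1.98 (SE 0.20, FDR 0.000126). It was 2.04 within litter 4633 and 2.65 within litter 5063, and *Cdkn2a* stayed called in all 28 settings. *Cdkn1b*, which encodes the inhibitor p27, was lower (−0.71, SE 0.13, FDR 0.00472). In all, 3 of 12 CDK inhibitors, D cyclins and their kinases were higher (*Cdkn2a*, *Cdkn2b* and *Ccnd2*) and 2 lower (*Cdkn1b* and *Cdkn2d*), and without *Kat6a*–/– replicate 4 the counts were 2 and 1.

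Of 44 tested S phase genes, 6 were lower and none higher, with values below 0 for 43 and a median of −0.26. The count for G2 and M phase was 7 lower and none higher of 54, with values below 0 for 50 and a median of −0.26. *Ube2c*, a ubiquitin conjugase gene of mitosis, had a log2 fold change of −0.43 (FDR 0.0184). *Kat6a*–/– replicate 4 was the lowest library for both lists, with a summed S phase level of 3329.8 CPM against 4986 to 5541 CPM in the other *Kat6a*–/– and 5252 to 6083 CPM in the *Kat6a*+/– libraries. Its summed G2 and M phase level was 7363 CPM against 10844 to 11353 and 10284 to 12006 CPM. Without *Kat6a*–/– replicate 4, no S phase gene and 1 G2 and M phase gene were lower, and without litter 5063 the medians were −0.12 and −0.14 and the counts of lower genes 5 and 12. In the G2 and M phase list 1 gene was higher without *Kat6a*–/– replicate 4, and 2 were higher without litter 5063. *Ube2c* was not called without *Kat6a*+/– replicate 1 (FDR 0.0603).

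Of 22 genes of the p53 target list, which includes *Trp53* itself, 7 were higher and none was lower, with a median of 0.30. For 0 of them did all 4 *Kat6a*–/– libraries lie above all 4 *Kat6a*+/– libraries, and for 1 all lay below. Over all tested genes, 12.3% were apart in either direction. Summed CPM of the list was 2272 to 3195 in *Kat6a*+/– and 2689.9 to 3434 in *Kat6a*–/– libraries, so the 2 ranges overlapped. *Ccng1*, which encodes cyclin G1, was at 270.5, 248, 254 and 451 CPM in *Kat6a*+/– and at 430.1, 469.8, 568 and 578 CPM in *Kat6a*–/– replicates 1 to 4 (log2 fold change 0.75, SE 0.14, FDR 0.00506). *Kat6a*+/– replicate 4 lay within the *Kat6a*–/– range for *Ccng1* and, at 160.3 CPM, for the death receptor gene *Eda2r* (0.59, SE 0.11, FDR 0.00468). The p53 target *Cdkn1a* was at 212 to 461 CPM in *Kat6a*+/– and 264 to 452 CPM in *Kat6a*–/– libraries, with a log2 fold change of 0.12 (FDR 0.632); it is named here after its values were seen. The p53 count was 11 without litter 5063 and 2 without *Kat6a*–/– replicate 4.

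Of 79 cytosolic ribosomal protein genes, 30 were lower and none was higher, with values below 0 for 76 and a median of −0.39. *Rpl35* was at 21.1, 23.8, 21.0 and 17.4 CPM in *Kat6a*+/– and at 15.5, 12.8, 14.6 and 10.1 CPM in *Kat6a*–/– replicates 1 to 4 (log2 fold change −0.70, SE 0.14, FDR 0.00603), and *Rpl37* had a log2 fold change of −0.44 (FDR 0.00644). The list summed to 13557, 12243, 14249 and 9729.9 CPM in *Kat6a*+/– and to 9975, 10797, 10981 and 7098 CPM in *Kat6a*–/– replicates 1 to 4, so each replicate 4 was the lowest of its group. The count was 40 without litter 5063, but 1 without *Kat6a*–/– replicate 4, where *Rpl35* itself was not called (FDR 0.0534). Ribosomal protein genes have many pseudogene copies, which can take reads.

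Of 25 cholesterol synthesis genes, 6 were lower and none higher (median −0.23), among them *Nsdhl* (−0.35, FDR 0.0199) and *Fdps* (−0.44, FDR 0.0207). None was called without *Kat6a*–/– replicate 4, and 6 were without litter 5063. Both named genes also lost their calls without *Kat6a*+/– replicate 1, and *Fdps* without *Kat6a*–/– replicate 1. Of 20 genes of ATF4 and amino acid stress, 4 were lower and 1, *Sesn2*, was higher (median −0.40). Without *Kat6a*–/– replicate 4, 1 was lower, and without litter 5063, 7 were. *Mthfd2*, a mitochondrial folate enzyme gene, was at 81.0, 73.0, 81.1 and 64.7 CPM in *Kat6a*+/– and at 50.5, 50.2, 59.8 and 33.5 CPM in *Kat6a*–/– replicates 1 to 4 (log2 fold change −0.68, SE 0.13, FDR 0.00498), and the amino acid transporter gene *Slc7a5* had a log2 fold change of −0.48 (FDR 0.0129), which was lost without *Kat6a*–/– replicate 4 (FDR 0.0769). All 23 tested hypoxia and glycolysis genes had values below 0 (median −0.81), of which 2 were called, *Pfkp* (−1.39, SE 0.28, FDR 0.00834) and *Pgk1* (−0.74, SE 0.23, FDR 0.0479). The call of *Pgk1* was lost without litter 5063 (FDR 0.144) and without any 1 of 8 of the 12 libraries, all 4 *Kat6a*–/– libraries and *Kat6a*+/– replicates 1 and 3 among them. Their summed level was 5106 and 6733 CPM in *Kat6a*+/– replicates 1 and 3 but 2868 and 2851 CPM in replicates 2 and 4, beside 2619 to 3135 CPM in *Kat6a*–/– libraries. The *Kat6a*+/– libraries thus split into a high and a low pair, and the low pair overlapped with *Kat6a*–/–. Of 23 tested immediate early genes, 2 were lower, *Klf6* (−0.59, FDR 0.00337) and *Klf4* (−0.89, FDR 0.0325), and *Klf4* lost its call in 11 of 28 settings.

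List counts also turned on *Kat6a*+/– replicate 1, the sole *Kat6a*+/– library of litter 4113. Without it, the axon guidance list had 5 genes higher and 1 lower, the glutamate and GABA receptor list 4 higher, the matrix list 2 higher and the channel list 3 higher. In the same fit no gene of the G2 and M phase, cholesterol synthesis or Polycomb group lists was lower. Over all single libraries left out, the astrocyte count ranged from 4 to 8 higher, the clustered protocadherin count from 5 to 17 higher and the p53 target count from 2 to 11 higher, while the interferon response list kept at least 3 lower.

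**Figure D4:**
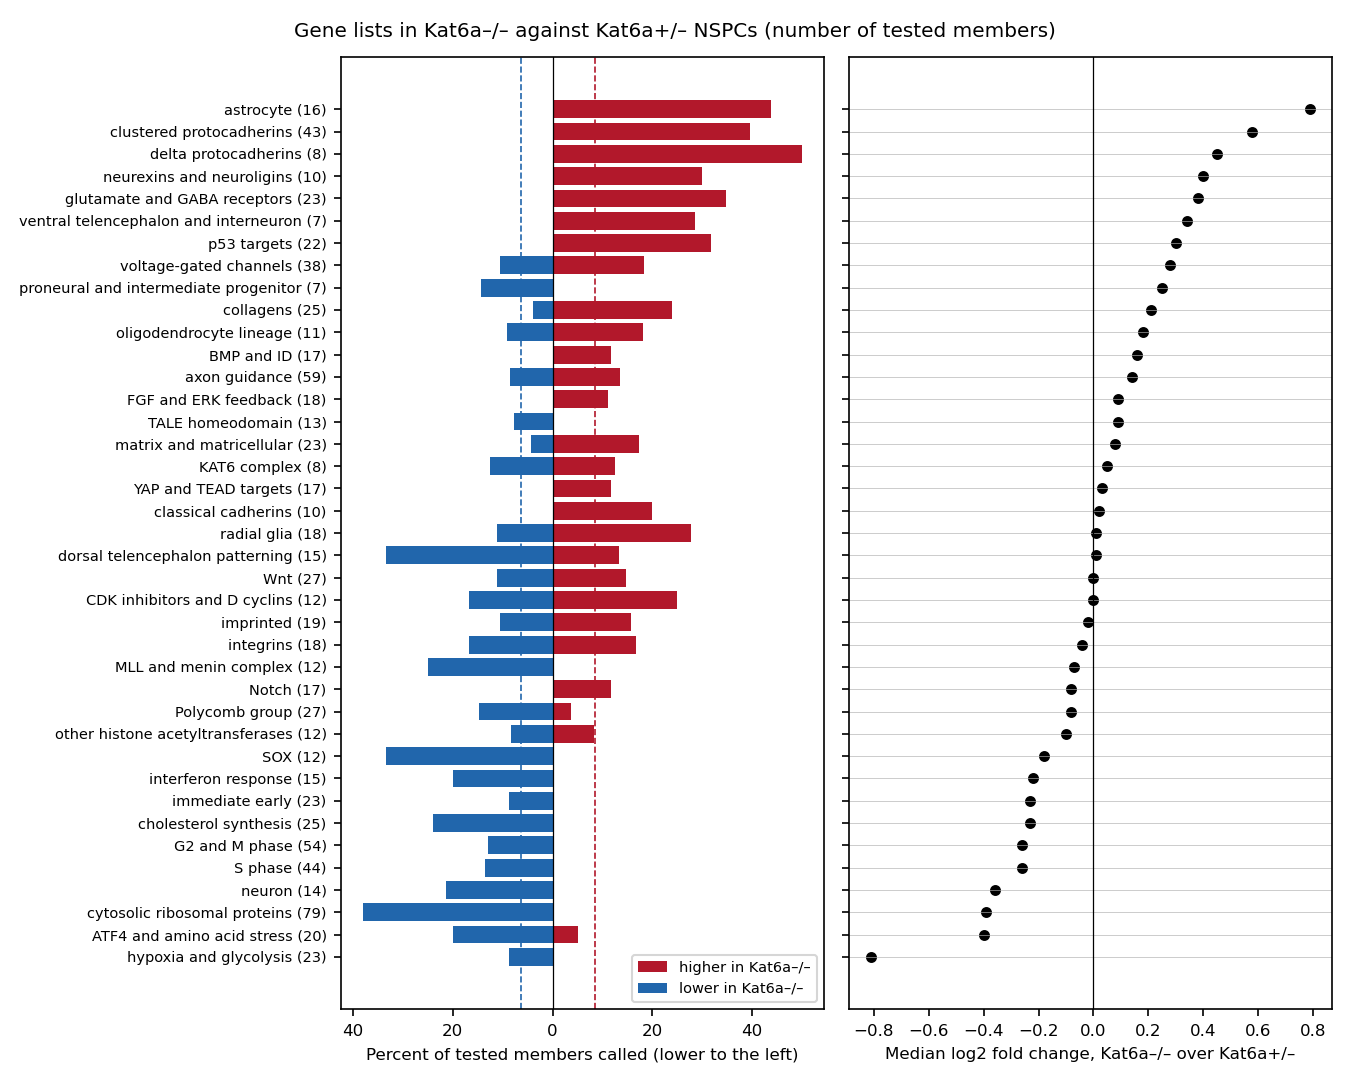
Left, percent of tested members called higher (red, to the right) and lower (blue, to the left) in *Kat6a*–/– against *Kat6a*+/– NSPCs for each list with at least 5 tested members, with dashed lines at 8.47% and 6.3%, the shares over all tested genes. Right, the median log2 fold change of the same list, from −0.81 for hypoxia and glycolysis to 0.79 for astrocyte markers.

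In the interferon response list 3 of 15 tested members were lower (*Bst2*, *H2-K1* and *H2-D1*) and none was higher. *H2-D1*, a class I antigen presentation gene, was at 19.3, 17.0, 21.8 and 15.4 CPM in *Kat6a*+/– and at 6.46, 7.34, 7.42 and 6.37 CPM in *Kat6a*–/– replicates 1 to 4 (log2 fold change −1.39, SE 0.18, FDR 0.000563). *Bst2*, which encodes tetherin, had a log2 fold change of −1.92 (SE 0.34, FDR 0.00316). Without litter 5063 the list again had 3 lower, and *H2-D1* and *Bst2* kept their calls. H2 genes are polymorphic and alike in sequence, so their reads can be shared.

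In the Notch list *Dll3* (1.12, SE 0.20, FDR 0.00383), an atypical ligand, and the receptor *Notch2* (0.50, SE 0.08, FDR 0.00261) were higher and none was lower of 17 tested. Without litter 5063, 2 were higher and 1 was lower. *Dll3* was at 4.99, 3.61, 5.64 and 6.19 CPM in *Kat6a*+/– replicates 1 to 4 and at 9.87 CPM or more in all 4 *Kat6a*–/– libraries. Of 27 tested Wnt genes, 4 were higher (*Wnt7b*, *Lgr5*, *Axin2* and *Znrf3*) and 3 lower (*Fzd10*, *Tcf7* and *Sfrp1*), and without *Kat6a*–/– replicate 4 the counts were 3 and 1. The stem cell receptor gene *Lgr5* had a log2 fold change of 0.71 (SE 0.13, FDR 0.00468) and the frizzled receptor gene *Fzd10* of −1.18 (SE 0.22, FDR 0.00471). *Dusp6*, a phosphatase that opposes ERK, was higher (0.60, SE 0.10, FDR 0.0026), as was *Etv4* (0.31, FDR 0.0424), in 2 of 18 FGF and ERK feedback genes, but *Etv4* lost its call in 17 of 28 settings. Without litter 5063, 1 gene of that list was higher and 2 were lower, and *Etv4* was not called (FDR 0.0514). Of 17 tested BMP and ID genes, 2 were higher, *Bmpr2* (0.33, FDR 0.0124) and *Smad5* (0.33, FDR 0.0218). Without *Kat6a*+/– replicate 1 neither was called, and *Smad5* was also lost without *Kat6a*+/– replicate 2 or 4 or *Kat6a*–/– replicate 1 or 2. In the YAP and TEAD list 2 of 17 tested were higher, *Arhgef17* (0.32, FDR 0.0361) and *Axl*, a receptor tyrosine kinase gene. *Arhgef17* was not called without litter 5063 (FDR 0.287) or without any 1 of 7 libraries. *Axl* was at 13.0, 14.5, 15.5 and 20.4 CPM in *Kat6a*+/– and at 52.4, 32.6, 38.2 and 68.5 CPM in *Kat6a*–/– replicates 1 to 4 (log2 fold change 1.60, SE 0.20, FDR 0.000566). Of 7 tested proneural and intermediate progenitor genes, 1 was called, *Elavl2*, which was lower (−0.62, FDR 0.0165) and not called without litter 5063 (FDR 0.114) or *Kat6a*–/– replicate 4 (FDR 0.147).

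Among 19 tested imprinted genes, 3 were higher (*Peg3*, *Ndn* and *Impact*) and 2 lower (*Grb10* and *Slc38a4*), and without *Kat6a*–/– replicate 4 the counts were 1 and 1. *Grb10*, a growth-restraining adaptor gene, was at 185, 140.2, 166 and 100.1 CPM in *Kat6a*+/– and at 49.6, 75.8, 58.0 and 43.5 CPM in *Kat6a*–/– replicates 1 to 4 (log2 fold change −1.31, SE 0.21, FDR 0.00289). The value was −1.31 within litter 4633 and −1.20 within litter 5063.

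Genes of the chromatin machinery differed little in size. Of the 8 genes of the KAT6 complexes, the paralog *Kat6b* was higher (0.24, SE 0.06, FDR 0.0209) and *Brd1* lower (−0.23, SE 0.07, FDR 0.0429). Neither was called without litter 5063 or without *Kat6a*+/– replicate 1 or *Kat6a*–/– replicate 4, and *Brd1* lost its call in 19 of 28 settings. *Kat6b* was at 56.2, 56.0, 58.2 and 55.2 CPM in *Kat6a*+/– and at 63.3, 66.7, 63.1 and 73.2 CPM in *Kat6a*–/– replicates 1 to 4. Of 12 other histone acetyltransferase genes and partners, *Kat2b* was higher (0.29, FDR 0.034) and *Jade1* lower (−0.35, FDR 0.0104). Neither was called without *Kat6a*–/– replicate 4. *Kat2b* was also not called without litter 5063 (FDR 0.135) and lost its call in 17 of 28 settings. Of 12 MLL and menin complex genes, 3 were lower and none was higher, among them *Dpy30* (−0.43, SE 0.08, FDR 0.00486) and *Men1* (−0.28, SE 0.06, FDR 0.0101), which encodes menin. *Men1* was at 124, 112, 118 and 106 CPM in *Kat6a*+/– and at 99.9, 92.5, 98.5 and 87.1 CPM in *Kat6a*–/– replicates 1 to 4, with no overlap. Of 27 Polycomb group genes, 4 were lower, among them *Phc2* (−0.23, FDR 0.0148) and *Phc1* (−0.38, FDR 0.0239), and 1, *Cbx6*, was higher. Without *Kat6a*–/– replicate 4, 1 Polycomb group gene was lower, *Phc1* was not called without *Kat6a*+/– replicate 1 or 2 or *Kat6a*–/– replicate 1 or 4 (FDR up to 0.152), and *Phc2* was not called without *Kat6a*+/– replicate 1 (FDR 0.0561).

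Whether the second step from *Kat6a*+/– to *Kat6a*–/– differed from the first step from *Kat6a*+/+ to *Kat6a*+/– was tested as the difference of the 2 log2 fold changes. No gene was called by limma-voom of 12276 tested (0.0%). The smallest FDR was 0.114, shared by 9 genes, and 1075 genes had an unadjusted p under 0.05. DESeq2 called 40 genes and edgeR called none, both fitted without a litter term, where limma-voom called 0. With litter as a fixed term 4 genes were called (*Hmga1*, *Syk*, *AI593442* and *Abat*), which are named after their values were seen. Without litter 5063 or without *Kat6a*+/– replicate 4, *Adgre5* was called, and without *Kat6a*+/– replicate 3, *Peg3* and *AI593442* were (FDR 0.044). The test was less precise than that of the second step alone, with a median SE of 0.19 against 0.11.

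The 3 genes with the smallest p differed in their shape over the genotypes. *Peg3*, a paternally expressed zinc finger gene, was at 97.8, 106, 93.0 and 92.0 CPM in *Kat6a*+/+, at 60.9, 69.1, 73.9 and 55.0 CPM in *Kat6a*+/– and at 89.5, 79.0, 95.6 and 85.4 CPM in *Kat6a*–/– replicates 1 to 4. Its *Kat6a*+/– libraries were thus lower than those of both other genotypes. The first step of *Peg3* was −0.57 (SE 0.09) and the second 0.43 (SE 0.09, FDR 0.00828), a difference of 1.00 (SE 0.16, FDR 0.114). *AI593442* was at 48.9 ± 8.77 CPM (SD, n = 4) in *Kat6a*+/+ and 52.3 ± 10.8 CPM in *Kat6a*+/– but at 18.2 ± 4.24 CPM in *Kat6a*–/– NSPCs, with steps of 0.05 and −1.45. *Lif*, which encodes a cytokine of the gp130 family that acts on neural stem cells, was at 12.4, 10.6, 9.19 and 17.1 CPM in *Kat6a*+/+, at 17.4, 14.1, 14.7 and 22.9 CPM in *Kat6a*+/– and at 4.73, 7.60, 4.32 and 8.43 CPM in *Kat6a*–/– replicates 1 to 4. Its first step was 0.50 (SE 0.17) and its second step −1.48 (SE 0.24, FDR 0.0023).

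Values of the first step are set beside those of the second for the largest changes, where both steps share the *Kat6a*+/– libraries. In the first step 0 genes were called at FDR under 0.05, so its values are estimates without a call. *Nrxn3* had 2.05 in the first and 2.99 in the second step, *Frem1* 1.55 and 2.48, and *Lrrc75b* 1.12 and 2.67, all as log2 fold changes. In the first step the SE was 0.73 for *Nrxn3* (FDR 0.526), 0.55 for *Frem1* (FDR 0.524) and 0.55 for *Lrrc75b* (FDR 0.679). *Nr2f2* had 0.08 and 3.10, *Megf11* 0.12 and 2.04, and *Cdkn2a* 0.25 and 1.98. *Sox1* had −0.37 and −2.23, *Htr1b* −0.79 and −3.82, and *Sfrp1* −1.26 (FDR 0.197) and −2.10. The difference of the 2 steps was not called by limma-voom for any of these genes. DESeq2, fitted without a litter term, called it for *Sox1* (FDR 2.31e-05) and *Htr1b* (FDR 0.000534), among others.

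**Figure D5:**
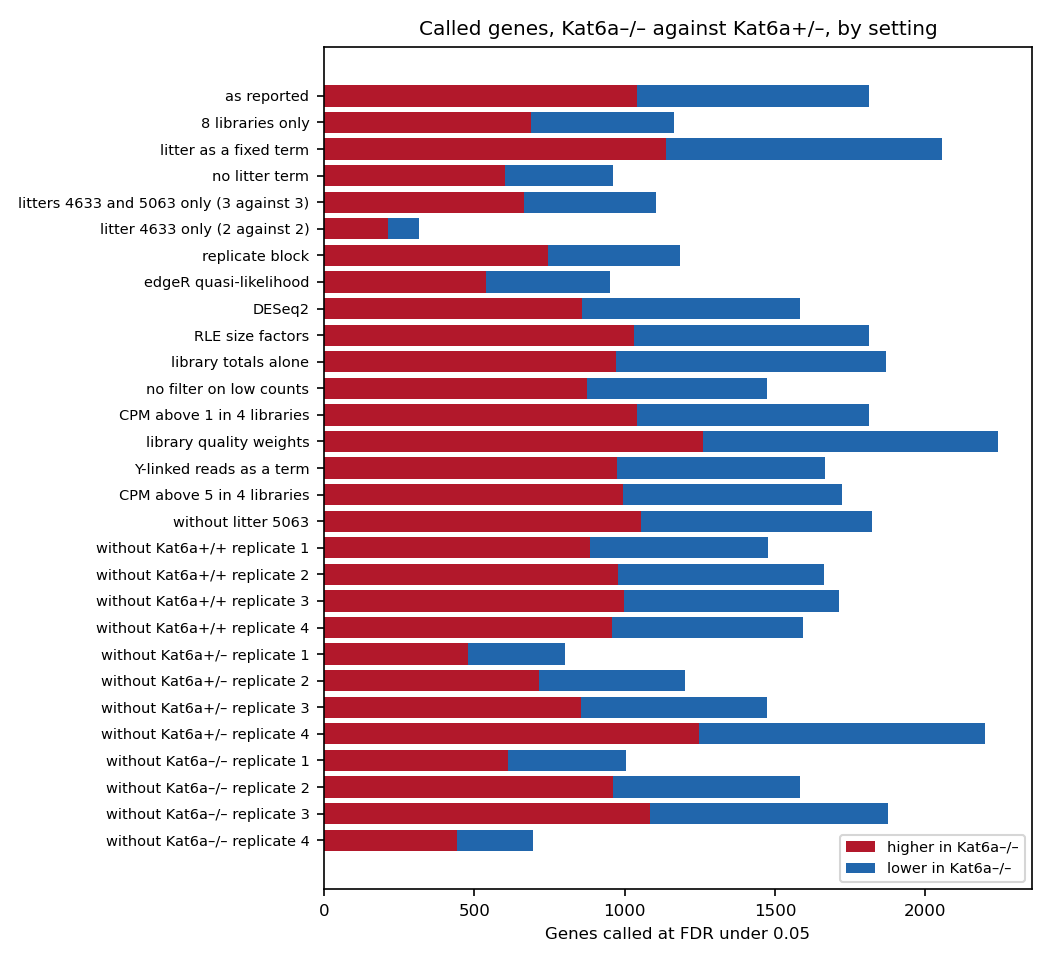
Number of genes called at FDR under 0.05 in *Kat6a*–/– against *Kat6a*+/– NSPCs under each setting, with higher genes in red and lower genes in blue. The bars run from 316 genes in litter 4633 alone to 2243 with library quality weights, beside 1813 as reported.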

How the data were processed

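Polyadenylated RNA of 12 proliferating NSPC libraries was analysed, and 12 differentiating libraries were not used here. RNA was extracted with a column kit and stranded libraries were made from 200 ng. The authors aligned the reads to mm39 with Rsubread and deposited raw counts per gene made with featureCounts and a RefSeq annotation. The strand setting of the counting and software versions were not given in the sources used here, so overlapping antisense genes cannot be told apart.

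The tables held 26411 genes, and 21030 of them were protein-coding in RefSeq, matched on Entrez number. Protein-coding genes that passed filterByExpr were kept, and *Xist* and Y-linked genes were removed. Counts were scaled by TMM and fitted with limma-voom (limma 3.58.1, edgeR 4.0.16, R 4.3.3), treating litter as a random effect (estimated correlation inside a litter 0.287), with robust moderation, over all 12 libraries, which share 1 estimate of the spread. CPM values use TMM-scaled totals. Log2 CPM used a prior count of 2. Positions came from GENCODE vM39. Between replicates, chi-square divided by its degrees of freedom was 4.9 or more, so no 2 libraries were alike within sampling noise. The fits were tested on simulated data.

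Named were *Kat6a*, the 12 largest rises and falls among called genes with an average log2 CPM above 0 and groups that did not overlap, of each list the 2 called members with the smallest p (or, with none called, the tested member with the smallest p), and for the difference of steps the 3 smallest p. Other called members of a list are named without values, and results of some genes are not reported here. Groups, lists and rules were chosen with earlier results of these data known. Alternatives were edgeR's quasi-likelihood test and DESeq2 1.42.0, both without a litter term. Others were different normalizations, filters and litter terms, and each library left out in turn.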

Additional observations from a re-analysis of the deposited data

Results flagged for a closer look

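A library was marked when it lay farther from the other 3 of its group than chance gives in about 1 of 20 groups. This held for 11 of 210 groups of values tested, about the number chance gives. *Kat6a*+/– replicate 4 was marked for *Lrrc75b* (2.3 CPM against 0.966 to 1.1), *Olig2* (850.3 CPM against 932 to 949), *Foxj1* (13.6 CPM against 7.65 to 8.42) and *Ccng1* (451 CPM against 248 to 270). *Kat6a*–/– replicate 4, of the same litter, was marked for *Olig2* (969.8 CPM against 1058 to 1074), *Pcdhb15* (8.43 CPM against 4.72 to 5.07) and the second principal component (27.87). *Kat6a*–/– replicate 1 was marked for *Olig1* (1755 CPM) and *Epha5* (90.4 CPM), *Kat6a*+/– replicate 1 for *Dusp6* (254 CPM) and *Kat6a*+/– replicate 2 for *Pfkp* (30.3 CPM against 63.4 to 66.3).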

How the results depend on the processing

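Of the 97 called genes named, 39 kept their call in every setting that tested them (28 settings, or 27 for genes below the filter at 5 CPM) and 58 lost it in at least 1, the setting with 2 libraries against 2 included. None of these 97 changed sign. *Kat6a*, which was not called, turned to −0.01 without *Kat6a*–/– replicate 1 and ranged up to 0.05 over single libraries left out. Beside 1813 calls, the count was 1164 with the 8 libraries alone, 1104 within litters 4633 and 5063 and 316 within litter 4633. It was 960 with no litter term and 951 by edgeR, which also had no litter term. Leaving out single libraries gave 696 to 2200 calls. Scaling by library totals alone moved the share of higher calls from 57.4% to 51.8%. The filter at 1 CPM in 4 libraries kept the same genes. Replicate numbers did not pair the samples, since deviations of equal numbers correlated at −0.0298, 0.199, 0.196 and 0.545, of which the second and the fourth pair share a litter. With the replicate block the count was 1183, and the difference of steps had 0 calls under the block. That difference had 4 calls with litter as a fixed term, 40 by DESeq2, 1 without litter 5063 and 0 to 2 when single libraries were left out. The cause of these shifts was not tested. The alternatives without litter 5063 and at 5 CPM were chosen after seeing the data. Of 43 lists, 10 had a median that moved beyond the spread between replicates in at least 1 setting. Depth limited genes under about 1 CPM, HOX genes included.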
